A study of Homo sapiens with 12 samples.

Results

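The genes described here make cholesterol and fatty acids. They were chosen by symbol, as 32 named genes among the 26499 genes in the count tables. All 32 were present, and all 32 were among the 15506 genes that passed the filter on low counts. By role they fall into 8 genes of the mevalonate and isoprenoid steps, 11 genes from squalene to cholesterol, 6 genes that sense or carry sterols, and 7 genes of fatty acid synthesis.

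A375 and SKMel28, the sources of the RNA, are human melanoma lines kept in culture. They were grown in DMEM with 10% fetal bovine serum. Each line was sequenced as sensitive cells and as a derivative resistant to BRAF and MEK inhibitors, with 3 libraries per group. The study used them to ask about the IGF1 pathway in resistance. The resistant cells of both lines were kept in 1 µmol/L vemurafenib, a BRAF inhibitor. No treatment of the sensitive cells is given, so resistance and the presence of the drug cannot be told apart. The labels name 1 resistant derivative per line and do not say whether it was a clone. Nor do they say whether replicates were cultured apart. Each p-value therefore reflects library-to-library spread, which may be technical.

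Cells make cholesterol from acetyl-CoA through mevalonate, isoprenoid diphosphates, squalene and a series of sterols. Most genes of the route are known targets of the sterol regulatory element-binding proteins (SREBPs), which SREBF1 and SREBF2 encode. SCAP escorts the SREBPs from the endoplasmic reticulum to the Golgi when sterols are scarce, and INSIG proteins hold the complex back when sterols are plentiful. SREBP-1 is known mainly for fatty acid genes and SREBP-2 for cholesterol genes.

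Gene-assigned reads ranged from 28496518 to 37721363 per library, and 1 CPM (a read count scaled to library size) stood for at least 29.8 reads. The melanocyte marker list of 8 genes separated the lines. Its summed level was 373 to 383 CPM in sensitive A375, 31.3 to 33.7 in resistant A375, 7268 to 7708 in sensitive SKMel28 and 10925 to 11077 in resistant SKMel28. SOX10 made up most of the sum in sensitive A375, at 325 CPM, and was at 0.138 CPM in resistant A375, where MITF made up most of it (39.6 CPM in sensitive and 31.0 CPM in resistant cells). The pigment genes PMEL, MLANA, TYRP1 and DCT averaged at most 0.649 CPM in A375, and TYR had no reads there. Summed leukocyte, endothelial and hepatocyte markers stayed under 10 CPM in every library. Summed epithelial markers reached 174 to 189 CPM in resistant A375, against 126 to 128 in sensitive A375. The genes of that list did not move together. Of 4 tested, 1 was called higher and 3 lower in resistant A375, with a median log2 fold change of -4.20. Fibroblast markers reached at most 26.9 CPM. Mitochondrial transcripts took 4.41% to 4.67% of gene reads in sensitive SKMel28 and 6.82% to 7.13% in resistant SKMel28. The part of these differences in the results below was not tested. Whether fewer cells expressed a gene or each cell held less of its RNA cannot be told apart in bulk RNA.

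The sequences upstream of 4 genes show the regulatory letters at issue in the SREBP route. SREBF2 was the 1 member among the 28 searched windows with the letters TCACNCCAC, 1 form of a sterol regulatory element. INSIG1 and SCD had the largest differences between the lines, and LSS was among the members that changed least. Each is read from RefSeq promoters (GRCh38.p14), 5′ to 3′ on the gene's strand, and ends before the first base of the gene in GENCODE 29. Capitals mark the sterol element TCACNCCAC and, as read on either strand, the CCAAT box and the GC box. The positions are chr22:41832855-41833078 (plus strand) for SREBF2, chr7:155297628-155297775 (plus) for INSIG1, chr10:100346983-100347123 (plus) for SCD and chr21:46228825-46229024 (minus) for LSS.
SREBF2: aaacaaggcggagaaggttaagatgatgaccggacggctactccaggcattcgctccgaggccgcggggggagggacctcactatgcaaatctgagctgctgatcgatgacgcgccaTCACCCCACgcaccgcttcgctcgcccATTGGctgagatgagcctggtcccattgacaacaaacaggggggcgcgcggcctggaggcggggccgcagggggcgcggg
INSIG1: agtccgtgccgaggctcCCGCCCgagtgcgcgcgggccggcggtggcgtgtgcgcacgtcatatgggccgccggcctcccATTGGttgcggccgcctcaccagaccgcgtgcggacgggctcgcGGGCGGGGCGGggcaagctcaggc
SCD: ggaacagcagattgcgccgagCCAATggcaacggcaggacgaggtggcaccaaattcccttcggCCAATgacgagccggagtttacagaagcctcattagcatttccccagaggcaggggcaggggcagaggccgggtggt
LSS: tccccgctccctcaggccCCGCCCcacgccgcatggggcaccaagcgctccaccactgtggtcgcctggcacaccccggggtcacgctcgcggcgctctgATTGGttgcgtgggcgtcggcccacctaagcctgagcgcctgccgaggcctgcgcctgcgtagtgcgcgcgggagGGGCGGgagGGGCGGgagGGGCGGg

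Promoter windows of 300 bases, from 250 before to 50 after the RefSeq start, were found for 28 of the 32 genes, and ACAT2, FASN, FDFT1 and SQLE had none. Letters were searched on both strands. The sterol element TCACNCCAC was in 1 of 28 windows (3.57%), that of SREBF2. It was in 1.09% of the windows of 11301 tested genes. A CCAAT box was in 17 of 28 members' windows (60.7%), against 36.5% of the tested genes' windows. By role the CCAAT box was in 8 of 9 windows from squalene to cholesterol and in 2 of 6 windows of fatty acid synthesis. The GC box (GGGCGG), which overlaps itself in some windows, was in 25 of 28 (89.3%), against 67.8%. These are matches of letters in 1 window per gene, and no binding was measured. Other spellings of a sterol element were not searched, so a window without TCACNCCAC may still hold one.

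Resistant SKMel28 cells had more RNA of many of these genes than sensitive SKMel28 cells, while resistant A375 cells had less of most of them than sensitive A375 cells. In SKMel28, 17 of the 32 members rose, 6 fell and 9 did not pass the test, an adjusted p below 0.05 in edgeR's quasi-likelihood test over all genes. In A375, 5 rose, 20 fell and 7 did not pass. The background was broad: 70.0% of all tested genes were called in SKMel28 (34.2% higher, 35.8% lower) and 51.3% in A375 (25.0% higher, 26.3% lower). The median log2 fold change of the members was 0.35 in SKMel28, where the median of all genes was -0.01, and -0.16 in A375, where it was 0.00. At least 1.5-fold changes were called for 18 of 32 members in SKMel28, against 35.1% of all genes, and for 3 of 32 in A375, against 18.5%.

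The change itself differed between the lines for 23 of the 32 members (71.9%), near the background of 63.8% of all genes. The direction was less even: 19 members (59.4%) were more negative in A375 and 4 (12.5%) more positive. Of all genes, 32.4% were more negative and 31.4% more positive. In all, 11 members fell in A375 and rose in SKMel28: ACAT2, MVK, IDI1, INSIG1, SREBF1, SREBF2, STARD4, ACACA, ELOVL6, SCD and FADS1. That is 34.4% of the members, and 9.86% of all tested genes did the same. The within-line comparisons share no libraries. SQLE, SC5D and FADS2 rose in both lines, less so in A375, and SCAP rose in both without a called difference. MVD and FDFT1 fell in both. The groups did not overlap in CPM for 24 members in each line (75%), against 57.9% of genes in A375 and 71.1% in SKMel28.

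**Figure D1:**
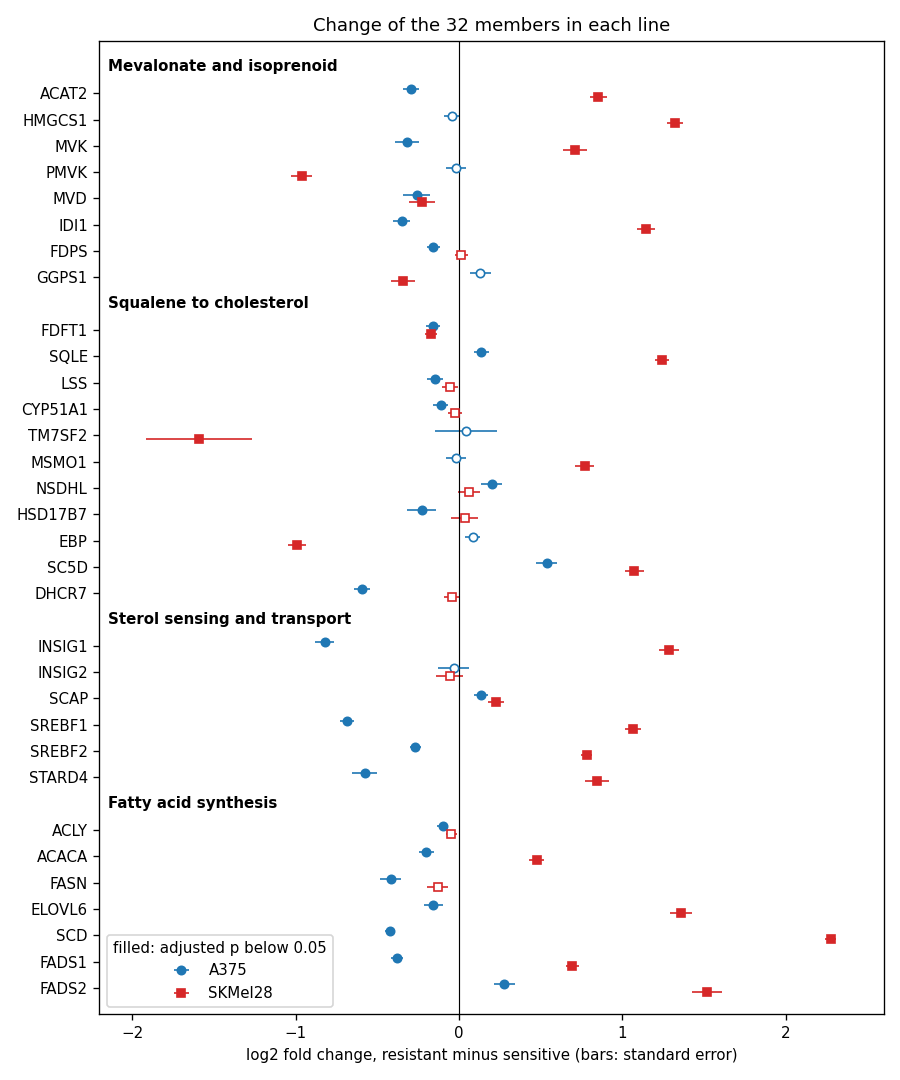
Log2 fold change (resistant minus sensitive, x axis) of each of the 32 members by role, with standard errors, for A375 (blue circles) and SKMel28 (red squares). Filled symbols passed the test. SCD lies farthest to the right in SKMel28 at 2.28, while INSIG1 lies farthest to the left in A375 at -0.82.

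Among the 8 mevalonate and isoprenoid genes, 5 fell and none rose in A375, while 4 rose and 3 fell in SKMel28. In A375 that is 62.5% lower, against 26.3% of all genes. In SKMel28 it is 50% higher and 37.5% lower, against 34.2% and 35.8%, so the share that fell there was near the background. The 4 that rose in SKMel28 were ACAT2, HMGCS1, MVK and IDI1, which stand at the start of the route and at its first isoprenoid. ACAT2, which joins acetyl-CoA units, was at 34.7, 34.4 and 33.3 CPM in sensitive and 59.7, 60.7 and 64.2 CPM in resistant SKMel28 (log2 fold change 0.85 ± 0.05 SE, adjusted p = 1.16e-18). In A375 it was at 59.2, 59.0 and 57.0 CPM in sensitive and 46.0, 49.4 and 47.7 CPM in resistant cells (-0.29 ± 0.05, adjusted p = 3.67e-06). The groups did not overlap in either line, and they moved in opposite directions.

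HMGCS1 makes HMG-CoA. It stood at 41.3, 40.7 and 41.7 CPM in sensitive SKMel28 and at 104, 102 and 103 CPM in resistant SKMel28 (1.32 ± 0.05, adjusted p = 1.16e-26). In A375 the levels were 52.9, 52.4 and 48.9 CPM against 48.95, 52.2 and 48.8 CPM, and the groups overlapped (-0.04 ± 0.05, adjusted p = 0.5). The rise in SKMel28 was paired with no called change in A375, and the difference between the lines was -1.36 (adjusted p = 2.05e-21).

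MVK phosphorylates mevalonate. Its 3 sensitive SKMel28 libraries read 17.0, 17.8 and 18.3 CPM and its resistant ones 27.3, 27.0 and 32.6 CPM (0.71 ± 0.08, adjusted p = 3.16e-11). Sensitive A375 read 26.0, 27.3 and 29.4 CPM and resistant A375 21.8, 21.6 and 22.9 CPM (-0.32 ± 0.07, adjusted p = 0.000289). IDI1 interconverts the isoprenoid building blocks. It rose in SKMel28 from 39.6, 39.3 and 37.8 CPM to 88.8, 83.6 and 85.6 CPM (1.14 ± 0.05, adjusted p = 4.08e-23). It fell in A375 from 49.2, 56.2 and 51.9 CPM to 40.3, 40.3 and 42.9 CPM (-0.35 ± 0.05, adjusted p = 3.13e-07). For both genes every resistant SKMel28 library was above, and every resistant A375 library below, the sensitive libraries of its line.

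The remaining steps of this branch did not follow. PMVK, the next kinase after MVK, had 58.6 ± 7.0 CPM (SD, n = 3) in sensitive and 30.1 ± 1.8 CPM in resistant SKMel28. That fall was -0.96 on the log2 scale (edgeR adjusted p = 4.4e-17). One of its sensitive SKMel28 libraries, replicate 1, was at 50.5 CPM, below the other two. In A375 PMVK was level, at 50.4 and 49.8 CPM (edgeR adjusted p = 0.836). MVD, the decarboxylase, fell by 0.26 in A375 and by 0.23 in SKMel28 on the log2 scale. FDPS, which makes farnesyl diphosphate, fell by 0.16 in A375 and was at 118 and 119 CPM in SKMel28. GGPS1, which makes geranylgeranyl diphosphate, fell by 0.34 in SKMel28 and had a log2 change of 0.13 in A375 that did not pass (adjusted p = 0.0789). GGPS1 was called higher in A375 under 6 alternatives: DESeq2's test, DESeq2 size factors, library-size scaling, no filter, the 2 groups alone, and without resistant replicate 3 (0.22, adjusted p = 0.00595).

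**Figure D2:**
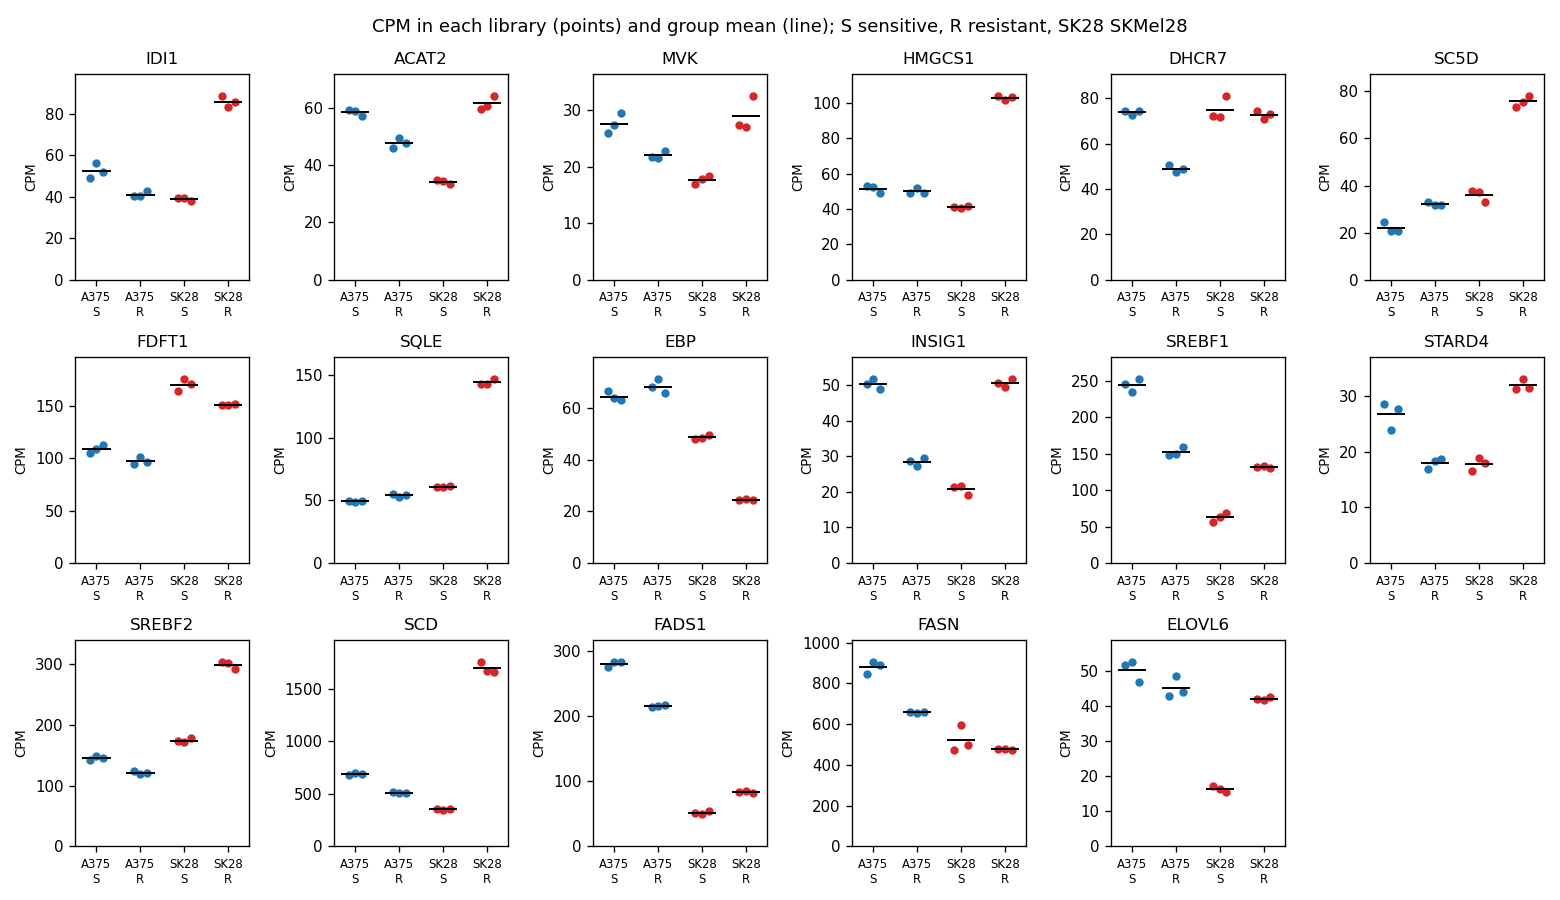
CPM (y axis, from 0) in each library for the 17 members described library by library, in sensitive (S) and resistant (R) cells of A375 (blue) and SKMel28 (red, SK28). Points are libraries and lines are group means. For INSIG1 the resistant SKMel28 libraries (49.3 to 51.7 CPM) lie where the sensitive A375 libraries do (49.02 to 51.7 CPM).

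Of the 11 genes from squalene to cholesterol, 3 rose in A375 and 3 in SKMel28, while 5 and 3 fell. In A375 that is 27.3% higher and 45.5% lower, against 25.0% and 26.3% of all genes. In SKMel28 it is 27.3% in each direction, below the 34.2% and 35.8% of all genes. SQLE, the squalene epoxidase, rose in SKMel28 from 60.9, 60.9 and 61.2 CPM to 143, 143 and 147 CPM (1.24 ± 0.04, adjusted p = 8.82e-28). In A375 it rose from 49.3, 48.9 and 49.6 CPM to 55.1, 53.0 and 54.5 CPM (0.14 ± 0.04, adjusted p = 0.00837). The groups were apart in both lines, and the difference between lines was -1.10.

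SC5D, the lathosterol desaturase, was the member with the largest rise in A375. It went from 24.6, 20.7 and 20.9 CPM to 32.9, 31.9 and 31.5 CPM there (0.54 ± 0.06, adjusted p = 1.88e-09). In SKMel28 it went from 37.5, 37.3 and 33.2 CPM to 73.4, 75.5 and 78.1 CPM (1.07 ± 0.06, adjusted p = 3.24e-20). No resistant library of either line overlapped the sensitive ones. MSMO1, a sterol methyl oxidase, rose in SKMel28 (36.5 ± 0.4 to 62.3 ± 2.1 CPM, log2 0.77) and was at 23.9 and 23.6 CPM in A375.

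DHCR7, which carries out the last reduction to cholesterol, fell in A375 from 74.4, 72.7 and 74.5 CPM to 50.7, 47.4 and 48.9 CPM (-0.59 ± 0.05, adjusted p = 6.83e-14). In SKMel28 its levels were 72.2, 71.8 and 81.2 CPM against 74.4, 70.7 and 73.2 CPM, which overlap (-0.04 ± 0.05, adjusted p = 0.416). The difference between the lines was -0.55 (adjusted p = 3.29e-09). EBP, the sterol isomerase, went the other way about: it fell in SKMel28 from 48.0, 48.2 and 49.7 CPM to 24.2, 24.7 and 24.5 CPM (-0.99 ± 0.05, adjusted p = 2.06e-20). In A375 it read 66.4, 63.9 and 63.1 CPM against 68.1, 71.3 and 65.7 CPM, with overlap and no call (0.08 ± 0.05, adjusted p = 0.148). It was called higher there with DESeq2's test, DESeq2 size factors, library-size scaling and without resistant replicate 3 (0.15, adjusted p = 0.0202).

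FDFT1, the squalene synthase, fell in both lines, with a difference between them of 0.01 that did not pass. In A375 it went from 105, 109 and 113 CPM to 94.9, 101 and 96.8 CPM (-0.16 ± 0.04, adjusted p = 0.000839). In SKMel28 it went from 164, 176 and 171 CPM to 151, 151 and 152 CPM (-0.17 ± 0.04, adjusted p = 0.000143). TM7SF2, a sterol reductase, was the lowest member: it had 106 reads in the 3 sensitive and 38 in the 3 resistant SKMel28 libraries, and fell by 1.59 ± 0.32 on the log2 scale there (adjusted p = 3.03e-05). It was at 4.03 and 4.14 CPM in A375. LSS and CYP51A1 fell in A375 by 0.15 and 0.11 and had changes of -0.05 and -0.02 in SKMel28 that did not pass. HSD17B7 fell by 0.23 in A375 and NSDHL rose by 0.20, and neither was called in SKMel28.

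Sterol sensing and transport genes held some of the sharpest contrasts: 5 of 6 rose and none fell in SKMel28, while 4 fell and 1 rose in A375. The shares were 83.3% higher in SKMel28, against 34.2% of all genes, and 66.7% lower in A375, against 26.3%. INSIG1, the sterol-responsive anchor of SCAP, fell in A375 from 50.3, 51.7 and 49.02 CPM to 28.8, 27.2 and 29.5 CPM (-0.82 ± 0.06, adjusted p = 3.19e-16). It rose in SKMel28 from 21.3, 21.7 and 19.2 CPM to 50.6, 49.3 and 51.7 CPM (1.28 ± 0.06, adjusted p = 1.15e-22). The resistant group was apart from the sensitive group in both lines, and the difference between the lines was -2.11 (adjusted p = 4.34e-25). Its upstream sequence printed above has 3 GC boxes, of which a pair overlaps, and 1 CCAAT box.

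SREBF1 was at 246, 235 and 253 CPM in sensitive A375 and at 148, 149.8 and 159 CPM in resistant A375 (-0.68 ± 0.04, adjusted p = 3.34e-16). In SKMel28 it was at 56.1, 63.8 and 68.8 CPM in sensitive and 132, 134 and 130.0 CPM in resistant cells (1.07 ± 0.05, adjusted p = 1.18e-21). The 2 lines thus lay further apart as sensitive cells than as resistant cells. SREBF2, whose window holds the sterol element, fell in A375 from 142, 149 and 145 CPM to 123, 119 and 120.3 CPM (-0.27 ± 0.04, adjusted p = 2.96e-08). In SKMel28 it rose from 174, 171 and 178 CPM to 303, 302 and 292 CPM (0.78 ± 0.04, adjusted p = 1.97e-23).

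STARD4, a cytosolic cholesterol carrier, fell in A375 from 28.6, 23.8 and 27.7 CPM to 16.9, 18.3 and 18.6 CPM (-0.58 ± 0.07, adjusted p = 1.01e-08). In SKMel28 it rose from 16.5, 18.8 and 17.9 CPM to 31.2, 33.1 and 31.4 CPM (0.85 ± 0.07, adjusted p = 1.56e-13). Neither pair of groups overlapped. SCAP rose by 0.13 in A375 and by 0.23 in SKMel28. INSIG2, the second anchor, had log2 changes of -0.03 and -0.06 and passed in neither line.

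All 7 fatty acid genes were called in A375, 6 lower and 1 higher, and 5 rose in SKMel28 with none lower. The shares were 85.7% lower in A375, against 26.3% of all genes, and 71.4% higher in SKMel28, against 34.2%. SCD, the stearoyl-CoA desaturase that makes monounsaturated fatty acids, had the largest change of any member. In SKMel28 it rose from 356, 342 and 351 CPM to 1753, 1671 and 1656 CPM, which is 4.84-fold (2.28 ± 0.03, adjusted p = 8.49e-42). In A375 it fell from 674, 694 and 683 CPM to 517, 505 and 507 CPM (-0.42 ± 0.03, adjusted p = 2.16e-15). Its 3 resistant SKMel28 libraries were the highest of the 12, and its 3 sensitive SKMel28 libraries were the lowest. The part of its upstream sequence printed above has 2 CCAAT boxes.

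ELOVL6, which lengthens palmitate, rose in SKMel28 from 17.3, 16.4 and 15.6 CPM to 42.0, 41.8 and 42.6 CPM (1.36 ± 0.07, adjusted p = 3.01e-22). In A375 the libraries overlapped, at 51.9, 52.7 and 46.9 CPM against 43.0, 48.8 and 44.2 CPM (-0.16 ± 0.06, adjusted p = 0.0211). FADS1, a desaturase of polyunsaturated fatty acids, rose in SKMel28 from 51.2, 49.3 and 53.7 CPM to 83.8, 84.2 and 81.7 CPM (0.69 ± 0.04, adjusted p = 2.1e-19). It fell in A375 from 275, 282 and 283 CPM to 213, 215 and 217 CPM (-0.38 ± 0.04, adjusted p = 2.19e-12). FADS2, its partner in the same pathway, did not fall with it: FADS2 rose by 0.28 in A375 (42.6 ± 1.4 CPM to 51.6 ± 2.5 CPM) and by 1.52 in SKMel28 (5.36 ± 0.75 CPM to 15.3 ± 1.2 CPM).

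FASN, the fatty acid synthase, fell in A375 from 848, 905 and 889 CPM to 661, 656 and 659.7 CPM (-0.42 ± 0.06, adjusted p = 9.11e-05). In SKMel28 it read 473, 598 and 497 CPM against 479, 478 and 475 CPM, with sensitive replicate 2 above the rest (-0.13 ± 0.06, adjusted p = 0.0884). The groups overlapped there. Without sensitive replicate 1 of SKMel28 the value was -0.19 (adjusted p = 7.26e-04), and without sensitive replicate 2 it was -0.02 (adjusted p = 0.697). It was also called lower with library-size scaling (-0.17), with no filter (-0.11) and with a replicate block (-0.12). The difference between lines of -0.29 (adjusted p = 0.0138) was not called without resistant replicate 1 or 3 of A375, without resistant replicate 1 or 3 of SKMel28, or with library-size scaling, with adjusted p up to 0.0690. ACACA, the acetyl-CoA carboxylase, fell by 0.20 in A375 and rose by 0.48 in SKMel28. ACLY, which makes cytosolic acetyl-CoA from citrate, fell by 0.10 in A375 and had a change of -0.05 in SKMel28 that did not pass.

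**Figure D3:**
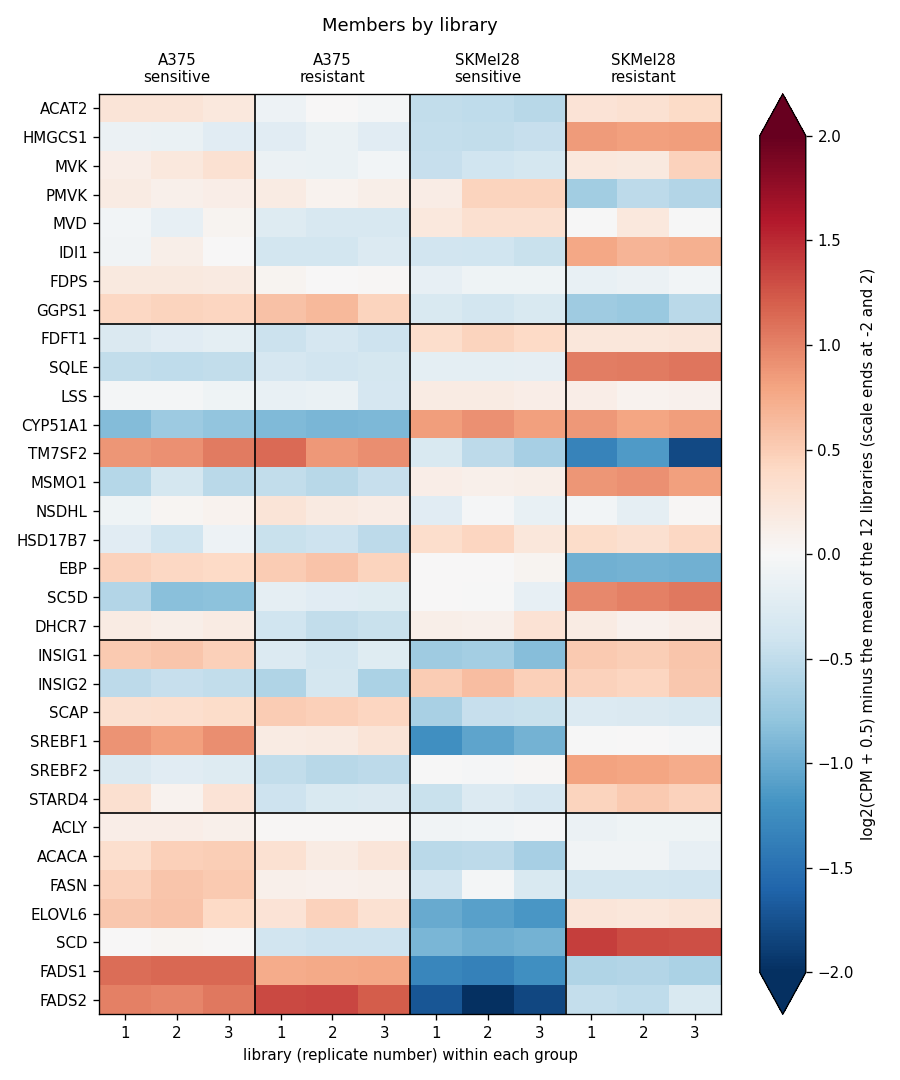
Log2(CPM + 0.5) of each member (rows, by role) in each of the 12 libraries (columns), minus its mean over the libraries, with red above and blue below the mean and colours ending at -2 and 2. The 3 libraries of a group look alike, and SCD, INSIG1, SREBF1 and ELOVL6 move in opposite directions in the lines.

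Several small A375 calls did not hold under every alternative. Of the 25 members called in A375, 17 kept their call under every alternative tried, against 22 of 23 in SKMel28. The 8 others were ACLY, CYP51A1, ELOVL6, HSD17B7, LSS, MVD, NSDHL and SCAP. Leaving out 1 library at a time ended the call of CYP51A1 and HSD17B7 in 5 of 6 fits, of ELOVL6 in 4, and of ACLY and MVD in 3. DESeq2's test and DESeq2 size factors each ended the calls of CYP51A1, ELOVL6, HSD17B7 and LSS. Library-size scaling and leaving out the filter did so for the first 3 of these. ACLY lost its call with DESeq2 size factors and with no filter, and CYP51A1 also with the 2 groups fitted alone. Adjusted p in these fits ran from 0.0510 to 0.189. CYP51A1 lost its call without each library but sensitive replicate 1, and HSD17B7 without each but sensitive replicate 2. ELOVL6 lost it without resistant replicate 1 or 3 or sensitive replicate 1 or 2, ACLY without any of the resistant replicates, and MVD without resistant replicate 2 or 3 or sensitive replicate 3. LSS was at -0.05 without resistant replicate 3 (adjusted p = 0.423). NSDHL (0.15, adjusted p = 0.109) and SCAP (0.12, adjusted p = 0.0616) lost theirs without sensitive replicate 1. MVD was at -0.21 in the 3 A375 fits in which it lost its call. In SKMel28 it was no longer called when resistant replicate 1 (-0.19, adjusted p = 0.0597) or 3 (-0.18, adjusted p = 0.0733) was left out. The highest adjusted p among the A375 fits with 1 library left out was 0.288 for CYP51A1, 0.169 for HSD17B7, 0.271 for ELOVL6, 0.138 for ACLY and 0.0601 for MVD.

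Summed over the 32 members, A375 went from 3972 ± 53.9 CPM in sensitive to 3264 ± 16 CPM in resistant cells (SD, n = 3). SKMel28 went from 2758 ± 85.3 to 4596 ± 52.0 CPM. SCD made up much of the rise: without it the sums were 2408 ± 92.3 and 2903 ± 4.6 CPM in SKMel28, and 3289 ± 44.8 and 2755 ± 10.5 CPM in A375. A mean of centred log2 values gives each gene the same weight. It was 0.14 ± 0.01 and -0.02 ± 0.01 in sensitive and resistant A375, and -0.27 ± 0.02 and 0.15 ± 0.0049 in sensitive and resistant SKMel28. The roles did not move alike. The sensing genes went from 0.20 to -0.17 in A375 and from -0.36 to 0.33 in SKMel28, and the fatty acid genes from 0.54 to 0.34 and from -0.87 to -0.0043. The genes from squalene to cholesterol stayed at -0.14 and -0.16 in A375 and went from 0.11 to 0.19 in SKMel28. No test was made of these means.

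**Figure D4:**
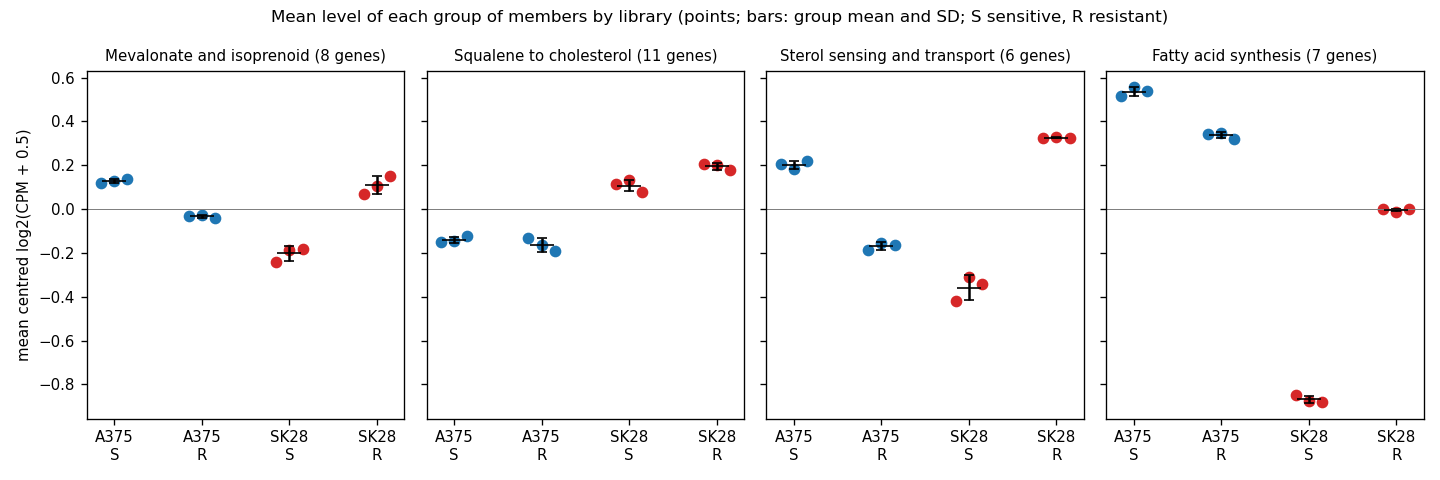
Mean centred log2(CPM + 0.5) of the members of each role (y axis) in each library (points), with the group mean and SD (black), for sensitive (S) and resistant (R) cells. The mean of the sensing genes shows the 2 lines trading places, from 0.20 and -0.36 as sensitive cells to -0.17 and 0.33 as resistant cells. Of the single sensing genes, only INSIG1 and STARD4 did so. The mean of the mevalonate and isoprenoid genes traded places too, from 0.13 and -0.20 to -0.03 and 0.11.

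The order of the lines changed for 8 members. As sensitive cells, A375 had more than SKMel28 of 19 members and less of 11, with 82.9% of all genes called (42.4% higher, 40.5% lower). As resistant cells, A375 had more of 13 and less of 18, with 85.3% of all genes called (42.6% higher, 42.7% lower). These comparisons share their libraries with the within-line ones and are given as levels only. Of these, 7 were higher in sensitive A375 than in sensitive SKMel28 and lower in resistant A375 than in resistant SKMel28: ACAT2, HMGCS1, MVK, IDI1, INSIG1, STARD4 and SCD. PMVK did the reverse, though its call between the sensitive lines (-0.22) was lost with library-size scaling (-0.07). SCD was 0.97 higher in A375 on the log2 scale as sensitive cells and 1.73 lower as resistant cells (log2 fold change -1.73). DHCR7 and NSDHL were not called between the sensitive lines, nor ELOVL6 between the resistant ones. With library-size scaling all 3 were called higher in A375 (0.12, 0.28 and 0.32). DESeq2's test and DESeq2 size factors also called NSDHL and ELOVL6 higher in A375 (0.15 for each gene in both). NSDHL was also called without sensitive replicate 1 of A375 or 2 of SKMel28. ELOVL6 was also called with the 2 groups alone and without resistant replicate 1 or 3 of A375. TM7SF2 and FADS2 were higher in A375 in both states, TM7SF2 by 1.77 and 3.41 and FADS2 by 2.99 and 1.75, while CYP51A1 had log2 values of -1.65 and -1.74.

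Levels of different genes were compared per exon length and library size (RPKM, from exon unions of GENCODE 29). SCD was the highest member in sensitive A375 (128 ± 1.9 RPKM), resistant A375 (95.1 ± 1.2) and resistant SKMel28 (316 ± 9.7). In sensitive SKMel28, SCD and ACLY were level at 65.2 ± 1.3 and 65.2 ± 1.4 RPKM, within their spread. FASN was at 94.1, 70.4, 55.8 and 51.0 RPKM in sensitive and resistant A375 and sensitive and resistant SKMel28. SREBF2 ranked 10 and 12 of 32 in sensitive and resistant A375 and 8 and 5 in SKMel28. TM7SF2 was last in all 4 groups, at 1.18, 1.21, 0.344 and 0.115 RPKM.

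In SKMel28 the genes around some members moved with them. For each member the median log2 fold change of the tested genes within 5 Mb was taken, over 18 to 202 neighbours. These medians ran from -0.15 to 0.19 in A375 and from -0.87 to 0.41 in SKMel28. EBP, on chromosome X at 48521158 to 48528716 (GRCh38, GENCODE 29), fell by 0.99 in SKMel28 where its neighbours had a median of -0.87. SCD rose by 2.28 where its neighbours had a median of 0.41. INSIG1, SREBF2 and MSMO1 rose against neighbours at -0.05, -0.19 and -0.43. The part of such regional change in these results was not tested.

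**Figure D5:**
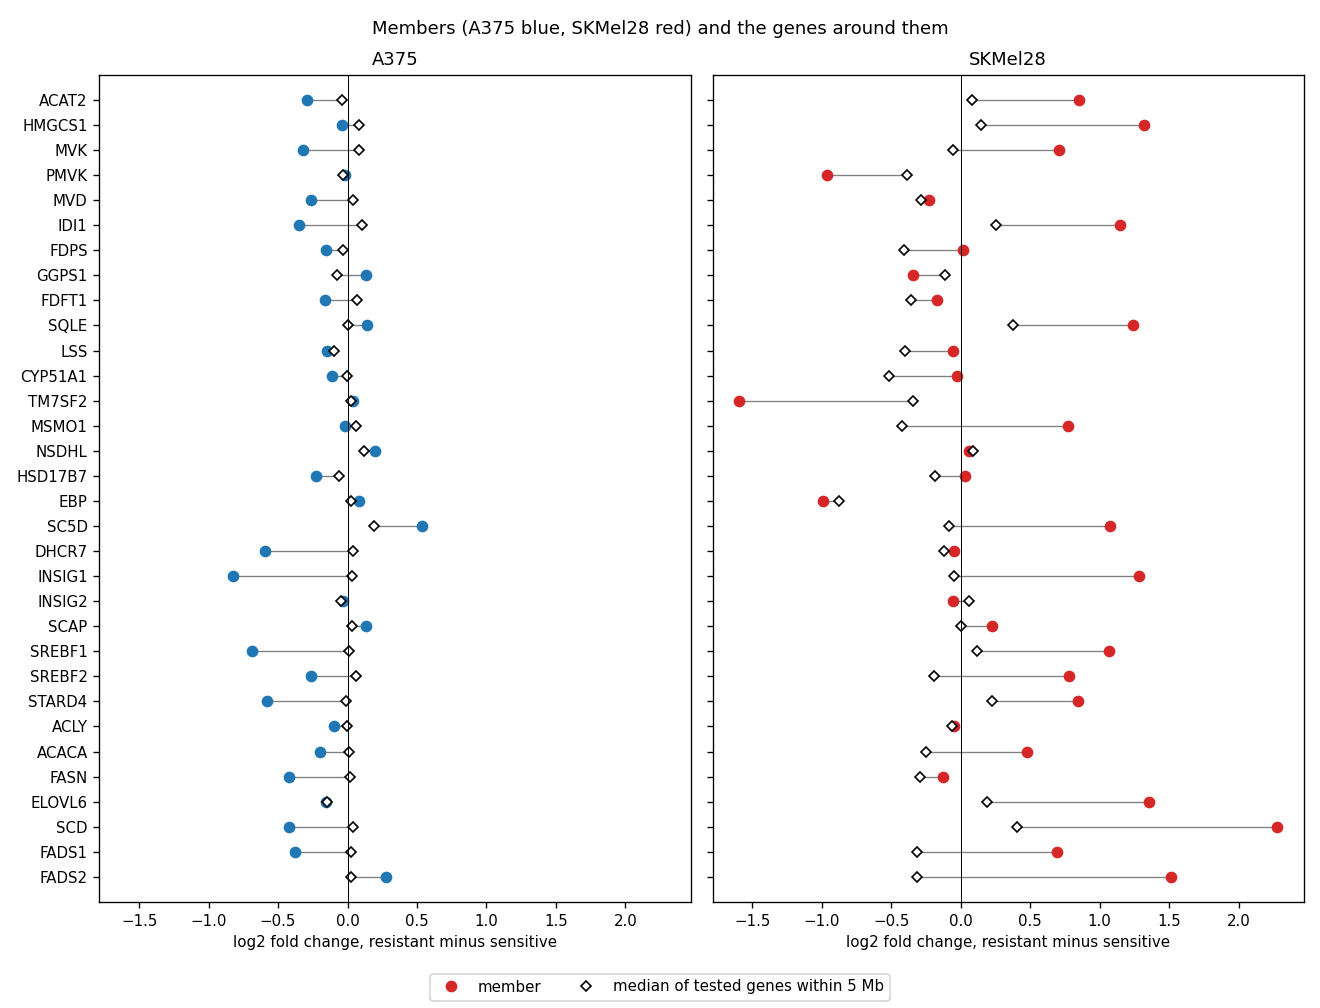
Log2 fold change (x axis, resistant minus sensitive, same scale in both panels) of each member (filled circles) and the median of the tested genes within 5 Mb of it (open diamonds) in A375 (left) and SKMel28 (right). In SKMel28 EBP and its neighbours lie together at -0.99 and -0.87, while SCD at 2.28 lies far from its neighbours at 0.41.

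Some values may hold reads of other genes, since the names of the deposited files point to counting without strand. Others may lack reads: those labelled ambiguous, 1.14% to 1.39% per library, were among the summary lines left out. Members that share exons with another counted gene, such as ACAT2 and GGPS1, may have lost reads in this way. Their RPKM, taken over the full exon length, may then be too low. CYP51A1 shares 83.2% of its exon bases with other annotated genes, ACAT2 52.3% (SOD2 and TCP1 among them) and GGPS1 41.0% (ARID4B and TBCE). FDPS, which has 8 named pseudogenes, shares 18.6%, HMGCS1 14.95% and IDI1 14.8%. FADS1 and FADS2 overlap each other over 5.57% and 4.89% of their exon bases at most. SQLE, SC5D, EBP, DHCR7, INSIG1, SCD, FASN, ELOVL6 and ACACA share none. Named pseudogenes also exist for CYP51A1 (3), HSD17B7 (2), FADS2 (1) and SCD (1).

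Other genes of sterol metabolism were counted from lists chosen for their function. The background for each list is the same. Of all tested genes, 25.0% were called higher and 26.3% lower in A375, with 34.2% higher and 35.8% lower in SKMel28. Of 16 genes that process or modulate SREBPs, their sensors or their targets, 9 rose in A375 and 6 in SKMel28, while 2 and 8 fell (56.2% and 37.5% of the list higher, 12.5% and 50% lower). MBTPS1, the site-1 protease that cuts SREBPs in the Golgi, rose by 0.29 in A375 and fell by 0.26 in SKMel28. ERLIN1 rose by 0.29 in both lines. MID1IP1, which promotes acetyl-CoA carboxylase assembly, fell by 1.76 in SKMel28, while FAF2 and SAR1B rose there by 0.60 and 0.55.

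Among 23 genes of sterol uptake, trafficking and storage, 7 rose in A375 and 12 in SKMel28, while 7 and 5 fell (30.4% and 52.2% of the list higher, 30.4% and 21.7% lower). LRP8, a lipoprotein receptor, fell by 1.09 in A375, and NCEH1 and GRAMD1B rose there by 1.09 and 1.14. SCARB1, the HDL receptor, rose by 0.58 in SKMel28, as did OSBPL9 (1.14) and OSBPL1A (0.99). Of 10 genes of the liver X receptors and sterol efflux, 1 rose in A375 and 3 in SKMel28, while 3 and 4 fell. LPCAT3 fell by 0.74 and RXRA by 0.16 in A375, where NR1H2 rose by 0.30. PLTP, the phospholipid transfer protein, fell by 3.43 in SKMel28 from 5.96 to 0.548 CPM, MYLIP rose by 0.97 and RXRB fell by 0.54.

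Of 14 genes on branches from the isoprenoids, such as prenyl transferases, 2 rose in A375 and 5 in SKMel28, while 5 and 3 fell. DHDDS, of dolichol synthesis, fell in both lines, by 0.61 and 0.47. ICMT and RABGGTB fell by 0.49 and 0.65 in A375, and FNTA and PGGT1B rose by 0.59 and 0.61 in SKMel28. Of 10 tested accessory and oxysterol genes, 4 rose in A375 and 7 in SKMel28, while 1 and 3 fell. POR, which passes electrons to CYP51A1 and SQLE, rose by 1.72 in SKMel28, where EBPL fell by 1.32 and CYB5R3 by 0.32. PGRMC1 and HSD3B7 rose by 0.71 and 1.17 in A375, and LBR fell by 0.30. Of 24 other tested fatty acid enzymes, 7 rose in A375 and 12 in SKMel28, while 8 and 8 fell. ACSL3, an acyl-CoA synthetase, fell by 0.80 in A375 and rose by 0.98 in SKMel28. SCD5, the second stearoyl-CoA desaturase, rose by 1.88 in SKMel28 and ACSL1 by 1.18. FADS3 fell by 0.55 and ELOVL2 rose by 1.69 in A375, the latter from 0.755 to 2.47 CPM.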

How the data were processed

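Poly(A)-selected RNA of 12 libraries (4 groups of 3) was sequenced as read pairs, per the labels' protocols. The authors deposited raw counts of reads per gene symbol. HISAT2, StringTie and GRCh38.p12 stand in the submitters' processing notes, while the names of the deposited files point to STAR and unstranded counting, so the aligner is not settled. The 5 summary lines of each file, 15.1% to 19.5% of counted reads, were left out.

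Genes were filtered with filterByExpr (15506 kept), scaled by TMM and fitted by edgeR 4.0.16 in R 4.3.3 (robust quasi-likelihood, 1 mean for each of the 4 groups, leaving 8 residual degrees of freedom). Tests were two-sided, with Benjamini-Hochberg adjustment over all genes tested and calls below 0.05. CPM used TMM-adjusted library sizes. The fit was tested on simulated data: for A375, 46 of 50 genes changed 1.25-fold and 50 of 50 changed 1.5-fold were recovered, with 12 false calls among 15194 genes. For the difference between lines, 29 of 50 and 45 of 50 were recovered, with 10 false calls among 15194 genes. Changes were put into A375 alone, in 50 genes each at 1.25-, 1.5-, 2- and 4-fold. In the deposited libraries 51.3% of all tested genes were called in A375. Recovery and false calls with so many genes changed, or with a spread that differs from gene to gene as in real replicates, were not tested. Alternatives were other scalings, no filter, DESeq2 1.42.0, each pair of groups alone, a replicate block, and leaving out each library. Replicates differed by more than sampling noise (chi-square over degrees of freedom 2.77 to 7.14).

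Members, roles and lists were chosen with earlier results of these data known. Library values are given for the members of each role with the 3 smallest adjusted p in either line, and list examples are up to 3 called genes per line by adjusted p, of which 1 is not reported here.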

Additional observations from a re-analysis of the deposited data

Results flagged for a closer look

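Resistance was accompanied by different changes in the 2 lines for 23 members, by edgeR's test of the A375 change minus the SKMel28 change. On the log2 scale the difference of the sensing and transport genes was -2.11 for INSIG1, -1.75 for SREBF1, -1.42 for STARD4 and -1.05 for SREBF2. Among the mevalonate and isoprenoid genes it was -1.49 for IDI1, -1.36 for HMGCS1, -1.14 for ACAT2, -1.03 for MVK and -0.17 for FDPS, and it was positive at 0.94 for PMVK and 0.47 for GGPS1. From squalene to cholesterol it was -1.10 for SQLE, -0.79 for MSMO1, -0.55 for DHCR7 and -0.54 for SC5D, and positive at 1.63 for TM7SF2 and 1.07 for EBP. For fatty acid synthesis it was -2.70 for SCD, -1.52 for ELOVL6, -1.24 for FADS2, -1.07 for FADS1, -0.67 for ACACA and -0.29 for FASN. A negative value means that the change was lower in A375. Over all genes 63.8% were called in this test, against 71.9% of the members. The differences of FASN and FDPS lost their call with library-size scaling.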

How the results depend on the processing

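Over 12 alternatives for each comparison within or between lines and 17 for the difference between lines, 22 of 32 members kept their call or lack of one in A375, 29 in SKMel28, 29 in the difference, 28 between the sensitive and 30 between the resistant lines. Leaving out 1 library at a time gave 3 to 7 members higher and 14 to 18 lower in A375 (3 higher without sensitive replicate 1), and 17 higher and 5 to 7 lower in SKMel28. Library-size scaling moved the median of all genes by 0.15 between the sensitive and 0.21 between the resistant lines. It turned DHCR7 between the sensitive lines from -0.02 to 0.12 (adjusted p = 0.0152), and the cause was not tested. The mean centred level moved to 0.213, 0.0810, -0.343 and 0.0490 in sensitive and resistant A375 and sensitive and resistant SKMel28, and with DESeq2 size factors to 0.0118 in resistant A375, -0.290 in sensitive and 0.140 in resistant SKMel28. Replicate numbers did not pair libraries in A375, where same-number correlations were -0.01, -0.00 and -0.01. In SKMel28 the same-number correlations were 0.17, -0.02 and 0.11. Numbers 1 and 3 crossed gave -0.15 in both directions there, so a pairing by number in SKMel28 is not settled. With a replicate block the counts were 5 higher and 20 lower in A375 and 17 higher and 7 lower in SKMel28, where FASN gained a call (-0.12, adjusted p = 0.0272). Depth limits TM7SF2 most among the members, with 38 reads over the 3 resistant SKMel28 libraries.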

Other observations

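Genes that burn or store fatty acids were not part of the comparisons above. Of 22 tested genes of fatty acid oxidation, 8 rose in A375 and 11 in SKMel28, while 6 and 6 fell (36.4% and 50% of the list higher, 27.3% and 27.3% lower). Of all tested genes, 25.0% were called higher and 26.3% lower in A375, with 34.2% higher and 35.8% lower in SKMel28. In A375 the medium-chain dehydrogenase ACADM fell from 51.5 to 24.2 CPM (log2 fold change -1.09), and the carnitine palmitoyltransferases CPT2 and CPT1A fell by 0.98 and 0.87. CPT1A, which admits long-chain fatty acids to mitochondria, fell in SKMel28 too, by 0.73. There HADHB rose by 0.50 and PPARA by 0.82, while ETFB, an electron carrier, fell from 116 to 46.2 CPM (-1.33).

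Of 23 tested genes of glycerolipid synthesis and storage, 11 rose in A375 and 9 in SKMel28, while 5 and 11 fell (47.8% and 39.1% of the list higher, 21.7% and 47.8% lower, against the same shares of all genes). PLIN2, the coat protein of lipid droplets, fell in both lines, by 0.40 in A375 and by 0.74 in SKMel28. PNPLA3 fell in both lines, by 1.52 and 1.44. MGLL, the monoglyceride lipase, went from 22.7 ± 0.9 to 0.403 ± 0.160 CPM in SKMel28 (SD, n = 3) and from 111 to 124 CPM in A375. The fatty acid-binding protein gene FABP7 had 291 reads in the 3 sensitive A375 libraries and 0 in the 3 resistant ones. In SKMel28 LPIN1, a phosphatidate phosphatase, rose by 1.45 and the fatty acid transporter gene SLC27A3 fell by 2.55.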
